A study of Mus musculus with 8 samples.

Results

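Mast cells are resident granular cells of the dermis, and 8 genes by which they are known were followed in mouse dorsal skin. The genes are Cpa3, Cma1, Mcpt4, Tpsb2, Kit, Ms4a2, Fcer1a and Hdc, 8 of the 18193 genes with a probe set of their own on the array. All probe sets that the platform annotation gives exactly 1 of these symbols were taken, 12 of the 45037 probe sets, and each gene is represented by its brightest one, selected on the mean level of the 8 arrays. The set of genes was itself chosen from earlier results on these arrays, so neither the covariation nor the diet values are independent support for it. The samples were dorsal skin of female Hos:HR-1 hairless mice, 10 weeks old. The control group was fed AIN-93G, a purified rodent diet. The collagen group was fed the same diet with 2.0 g of a collagen hydrolysate from fish scales, a mixture of peptides, per 100 g, for 1 week. Each diet has 4 arrays, called biological replicates in the labels and named here control 1 to 4 and collagen 1 to 4. The experiment had 16 mice, 8 per diet, kept 4 to a cage, all of 1 sex, strain and age. No label ties an array to a mouse or a cage, so arrays of 1 diet may share a cage. The tests below treat the arrays as independent and cannot separate diet from cage. The part of cage in the values was not tested.

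Mast cells arise from progenitors that need KIT, a receptor tyrosine kinase, and its ligand to survive in tissue. They carry the high-affinity IgE receptor on their surface, and they store histamine, heparin and proteases in granules that are released when that receptor is crosslinked. In mouse skin the connective tissue type prevails, which is known for carboxypeptidase A3, chymases and tryptases. The transcription factor GATA2, which binds GATA letters in DNA, and MITF, which binds E-boxes, are known for their part in the expression of mast cell genes.

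The proximal promoters of the members are shown because the genes moved together over the arrays, as described below. RefSeq promoters of build GRCm38.p6 were found for 7 of the 8 genes. The 150 bases before the start are printed 5′ to 3′ for Cpa3, chr3:20242182-20242331 (minus strand), Cma1, chr14:55944676-55944825 (minus strand), Mcpt4, chr14:56062311-56062460 (minus strand), Ms4a2, chr19:11623720-11623869 (minus strand), Fcer1a, chr1:173227230-173227379 (minus strand), and, as a member without a match, Kit, chr5:75574837-75574986 (plus strand). Capitals mark each GATA-type match, which is AGATAA, the same letters ending in G, or either of these beginning with T, on either strand.
Cpa3: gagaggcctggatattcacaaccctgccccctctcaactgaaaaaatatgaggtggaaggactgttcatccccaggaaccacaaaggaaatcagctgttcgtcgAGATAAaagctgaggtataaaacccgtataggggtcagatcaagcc
Cma1: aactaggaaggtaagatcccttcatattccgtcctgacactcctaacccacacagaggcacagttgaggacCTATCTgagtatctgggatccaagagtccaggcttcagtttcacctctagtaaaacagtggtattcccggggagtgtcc
Mcpt4: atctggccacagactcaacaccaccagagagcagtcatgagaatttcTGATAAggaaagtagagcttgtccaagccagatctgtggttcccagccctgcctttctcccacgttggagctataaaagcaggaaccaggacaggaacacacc
Ms4a2: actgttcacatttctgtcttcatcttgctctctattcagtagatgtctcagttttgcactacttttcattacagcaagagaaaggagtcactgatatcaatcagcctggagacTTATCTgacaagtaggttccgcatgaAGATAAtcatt
Fcer1a: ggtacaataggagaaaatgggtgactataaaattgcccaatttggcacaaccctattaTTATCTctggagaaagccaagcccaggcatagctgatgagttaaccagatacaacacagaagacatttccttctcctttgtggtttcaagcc
Kit: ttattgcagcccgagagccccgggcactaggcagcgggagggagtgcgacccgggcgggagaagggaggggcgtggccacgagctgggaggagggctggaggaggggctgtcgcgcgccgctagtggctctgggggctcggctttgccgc

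In the 250 bases before the start, 6 of these 7 genes held at least 1 GATA-type match, against 26.5% of all 32851 promoters. Ms4a2 held 3, of which 2 lie in the printed stretch, the nearer 11 bases before the start. The start is that of the promoter entry and need not be the outer end of the gene. The annotated Ms4a2 gene reaches to chr19:11623790, so the 2 printed matches lie inside it. The Cpa3 gene reaches to chr3:20242209 and the Fcer1a gene to chr1:173227232, short of their matches. The match of Cpa3 began 46 bases before the start, that of Cma1 79, that of Fcer1a 92 and that of Mcpt4 103. The match of Hdc began 221 bases before the start, beyond the length printed here. The annotated Hdc gene reaches to chr2:126624025, past this match, so the start used lies inside the gene. The E-box letters CACGTG, or the form with CATGTG, stood on either strand in 1 of the 7 genes (Fcer1a), against 17.6% of all promoters. TATAAA on the gene's strand stood in Cpa3, Mcpt4 and Fcer1a, against 7.59% of all promoters. A match is a description of these letters and not evidence of binding.

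The deposited log2 values vary very little between arrays, with a median range of 7.36e-06 over all probe sets, and no method is given that would turn a difference into a fold change. Differences are therefore given on the deposited scale and as multiples of the within-group standard deviation (SD). The number of arrays limits the precision. Because neither mouse nor cage is named per array, p-values measure only the spread between these arrays. The array medians lay between 8.1929 and 8.1932. Markers of the tissue were present, with a mean level over the arrays near 13.60 for 6 keratinocyte genes and near 13.00 for 6 fibroblast genes. The levels of different probe sets also depend on their sequences and are not set against each other. Ranges differ widely even between probe sets of 1 gene (for Kit 0.00291 and 3.27e-06). Where ranges are compared below, they describe the deposited values and not the size of expression changes.

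The granule proteases had collagen 1 and control 4 as their 2 highest arrays and control 1 as the lowest. Cpa3, the carboxypeptidase stored with heparin in mast cell granules, lay at 11.9332, 11.9336, 11.9348 and 11.9353 in control 1 to 4 and at 11.9361, 11.9335, 11.9339 and 11.9341 in collagen 1 to 4. Collagen 1 was highest, control 4 second and control 1 lowest, and the diets overlapped. Cma1, the chymase of connective tissue mast cells, lay at 11.3310, 11.3319, 11.3335 and 11.3356 with the control diet and at 11.3375, 11.3311, 11.3326 and 11.3338 with collagen. The same arrays stood at the top and at the bottom.

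Mcpt4, the chymase of mouse mast cells regarded as the counterpart of human chymase, lay at 10.1142, 10.1161, 10.1172 and 10.1211 in the control arrays and at 10.1227, 10.1142, 10.1150 and 10.1158 in the collagen arrays. Control 1 and collagen 2 were nearly equal at the bottom, and collagen 1 and control 4 stood above all others. Cma1 and Mcpt4 lie in 1 cluster of related proteases on chromosome 14, with 4 coding genes between them (Cma2, Mcpt1, Mcpt2 and Mcpt9). Whether probes in part read near copies was not tested.

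Tpsb2, a tryptase that lies next to the tryptase gene Tpsab1, had a far smaller range, 2.57e-04, against 0.00293 for Cpa3, 0.00652 for Cma1 and 0.00856 for Mcpt4. Its values were 8.63008, 8.63011, 8.63020 and 8.63034 in control 1 to 4 and 8.63028, 8.63016, 8.63011 and 8.63018 in collagen 1 to 4. Here control 4 was highest and collagen 1 second. The second Tpsb2 probe set, at a mean of 7.9740, varied over only 2.62e-06 and did not follow the first (r = 0.151, exact permutation p = 0.719, adjusted p = 0.719 over the 4 such pairs).

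The receptors showed the same 2 arrays at the top. Kit, the receptor that mast cells need to survive and that melanocytes also carry, lay at 9.6630, 9.6633, 9.6634 and 9.6644 in the control arrays and at 9.6655, 9.6628, 9.6629 and 9.6626 in the collagen arrays. Collagen 1 stood far above the other collagen arrays, which were the 3 lowest of all 8. Kit had a dimmer probe set at 7.8369 with a range of 3.27e-06. Its r with the brighter one was 0.794 (exact permutation p = 0.0217, adjusted p = 0.0289) and Spearman's rho 0.452 (exact permutation p = 0.267), and r was -0.35 without the 2 farthest arrays.

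Ms4a2, the beta chain of the IgE receptor, lay at 9.2897, 9.2897, 9.2917 and 9.2932 in control 1 to 4 and at 9.2940, 9.2904, 9.2915 and 9.2915 in collagen 1 to 4. Control 1 and control 2 were lowest and nearly equal. Its dimmer probe set at 7.8750 followed it with r = 0.917 (exact permutation p = 0.00171, adjusted p = 0.00342) and rho = 0.81 (exact permutation p = 0.0218), and r was 0.798 without the 2 farthest arrays. Fcer1a, the alpha chain that binds IgE, was the 1 gene of the 8 whose level lay below 8.193, the median of all probe set means. It lay at 8.0221, 8.0240, 8.0248 and 8.0288 with the control diet and at 8.0280, 8.0237, 8.0245 and 8.0257 with collagen. Control 4 was highest and control 1 lowest.

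Hdc, the enzyme that makes histamine from histidine, had the widest range of the 8 genes, 0.0147. It lay at 8.7109, 8.7154, 8.7141 and 8.7166 in the control arrays and at 8.7256, 8.7142, 8.7126 and 8.7162 in the collagen arrays. Collagen 1 stood clear of all others, and control 4 was second by a small margin over collagen 4. Its second probe set, at 8.4936, repeated the pattern with r = 0.991 (exact permutation p = 7.44e-05, adjusted p = 2.98e-04) and rho = 0.976 (exact permutation p = 3.97e-04), and with r = 0.901 without the 2 farthest arrays. Both Hdc probe sets carry the array maker's suffix for probes that match more than 1 transcript.

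**Figure D1:**
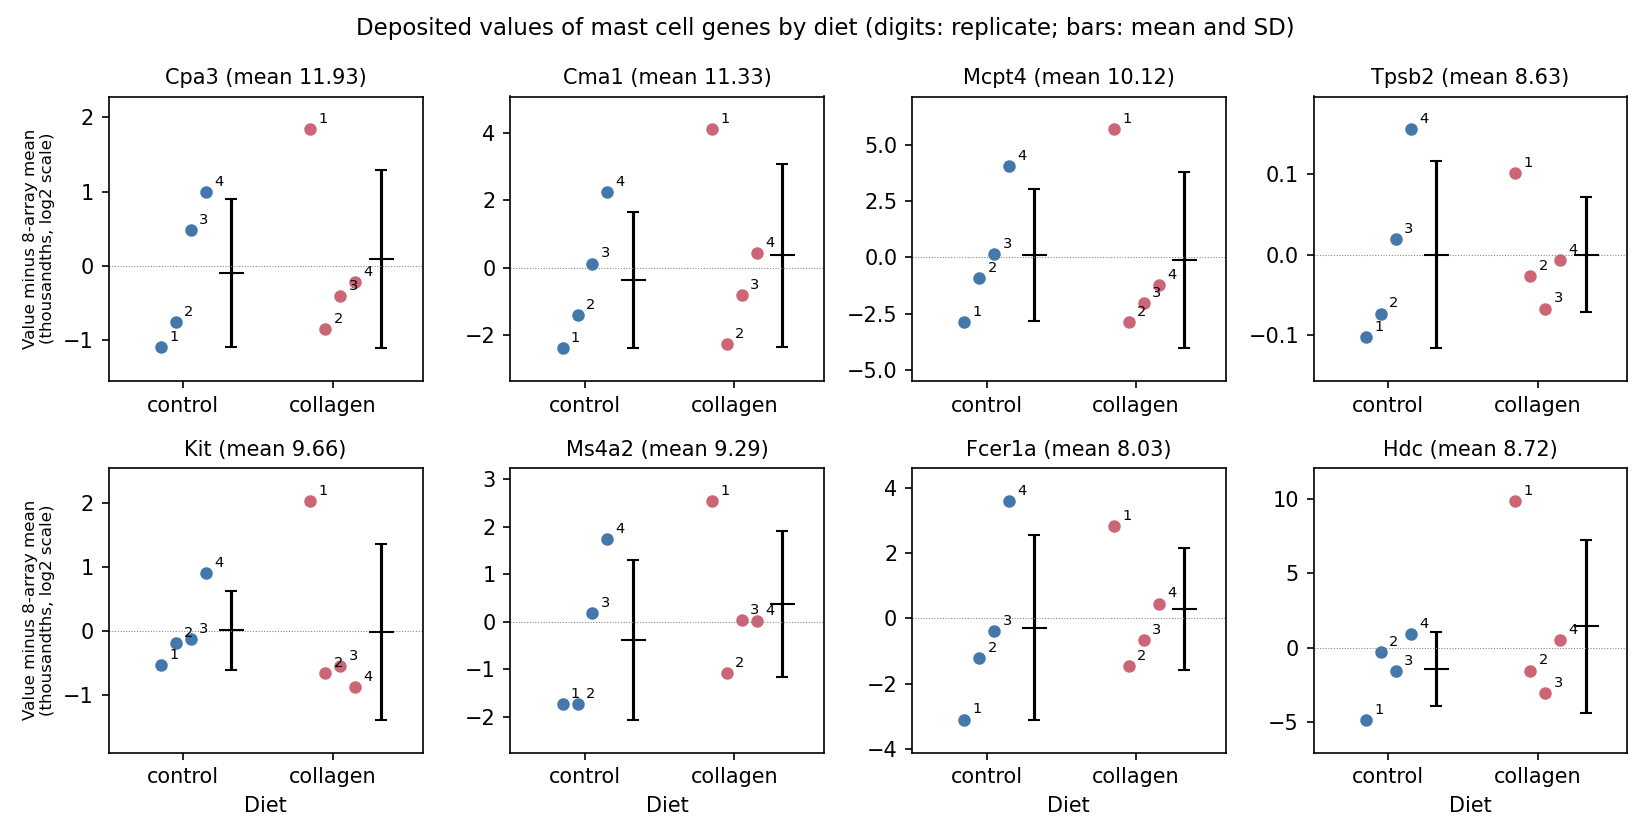
Deposited log2 values of the 8 genes by diet, each as the value minus the gene's mean over the 8 arrays in thousandths of the log2 scale, with a separate scale in each panel; points are arrays, digits their replicate numbers, and bars the mean and SD of 4 arrays. Collagen 1 and control 4 are the highest arrays of every panel, and the diets overlap in every panel.

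Collagen 1 and control 4 were the 2 highest arrays in 8 of the 8 genes, a pair that held the top for 4.61% of all genes. Collagen 1 was highest in 6 members and control 4 in Tpsb2 and Fcer1a. Control 1 was lowest in 6 members, with control 2 lowest for Ms4a2 and collagen 4 for Kit. Over all genes collagen 1 was highest in 17.6% and control 1 lowest in 12.8%. Expressed as z values over the 8 arrays, the mean of the 8 genes was -1.04, -0.55, 0.03 and 1.11 in control 1 to 4 and 1.72, -0.68, -0.46 and -0.13 in collagen 1 to 4. In whole skin, more mast cells and more RNA per mast cell cannot be told apart.

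**Figure D2:**
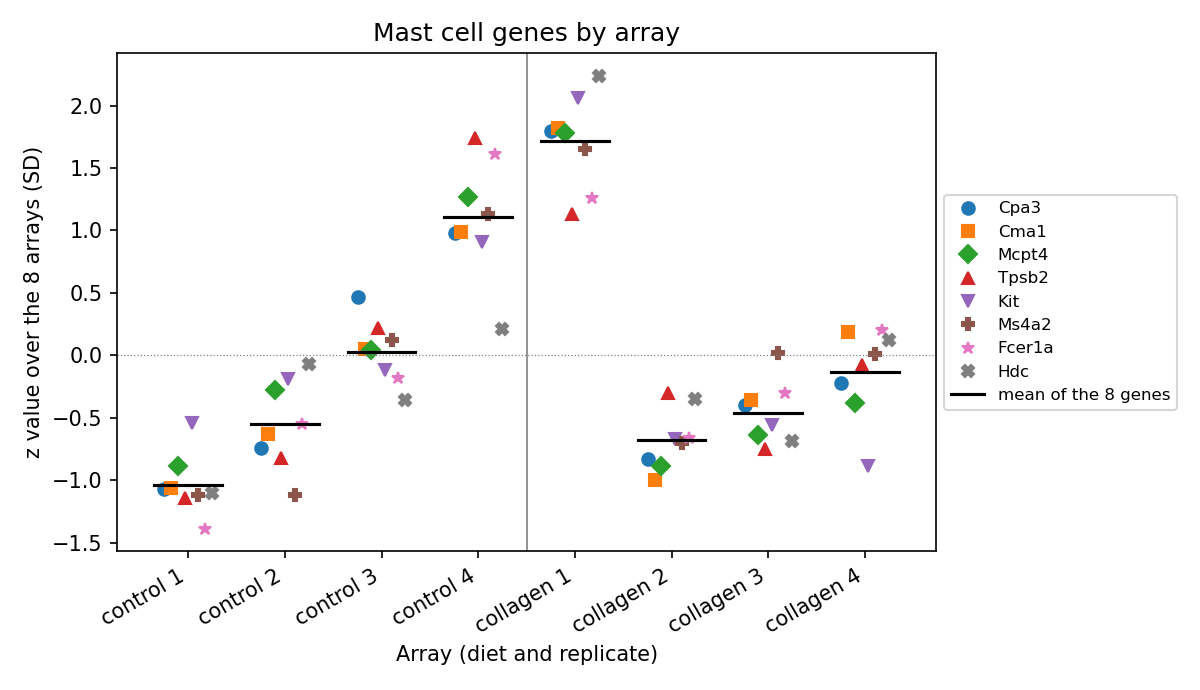
z value of each of the 8 genes over the 8 arrays (vertical axis, in SD) by array (horizontal axis, control arrays left of the line and collagen arrays right); black bars are the mean of the 8 genes. The mean is highest in collagen 1 (1.72) and control 4 (1.11) and lowest in control 1 (-1.04).

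The 8 genes were correlated with each other over the 8 arrays. Pearson's r was above 0 in all 28 pairs, with a median of 0.893 and a range from 0.677 (Tpsb2 with Hdc) to 0.973 (Cpa3 with Cma1). By an exact permutation test with adjustment over the 28 pairs, 27 pairs passed 0.05, and 18 passed by Spearman's rho, whose median was 0.81. For Cpa3 and Cma1 the exact permutation p was 1.98e-04 (adjusted p = 0.00278) and rho was 0.976 (exact permutation p = 3.97e-04, adjusted p = 0.00556). After each diet's mean was subtracted, with permutation within diets, the median r was 0.908 and 27 pairs passed.

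In the mean z value collagen 1 and control 4 stood apart from the other 6 arrays, and the correlations were mostly weaker without them. In Hdc control 4 (8.7166) lay close to collagen 4 (8.7162). Without the 2 arrays farthest from the median of the first gene of a pair, which were these in all but 2 pairs (Ms4a2 with Fcer1a and with Hdc, where control 2 took the place of control 4), the median r was 0.672, 24 pairs stayed above 0 and 0 passed the adjusted exact test, where 6 arrays allow a smallest p of 0.00139. Over those arrays r stayed at 0.869 for Cpa3 with Cma1, at 0.837 for Cpa3 with Mcpt4 and at 0.898 for Cma1 with Fcer1a. Kit kept 0.586 with Mcpt4 and 0.319 with Cpa3, while its r with the other 5 genes lay between -0.151 (Ms4a2) and 0.0169 (Tpsb2), so the relation of Kit to these 5 rests on those 2 arrays. Hdc had 0.383 with Cpa3, and Mcpt4 had 0.475 with Ms4a2. The arrays left out were chosen by the values tested, which narrows the range and by itself tends to lower r. Without collagen 1 alone 16 pairs passed, with 28 pairs above 0 and a median r of 0.886. Without replicate 1 of both diets 1 pair passed (Cma1 with Fcer1a, r = 0.941, exact permutation p = 0.00139, adjusted p = 0.0389), with 28 pairs above 0 and a median r of 0.854.

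**Figure D3:**
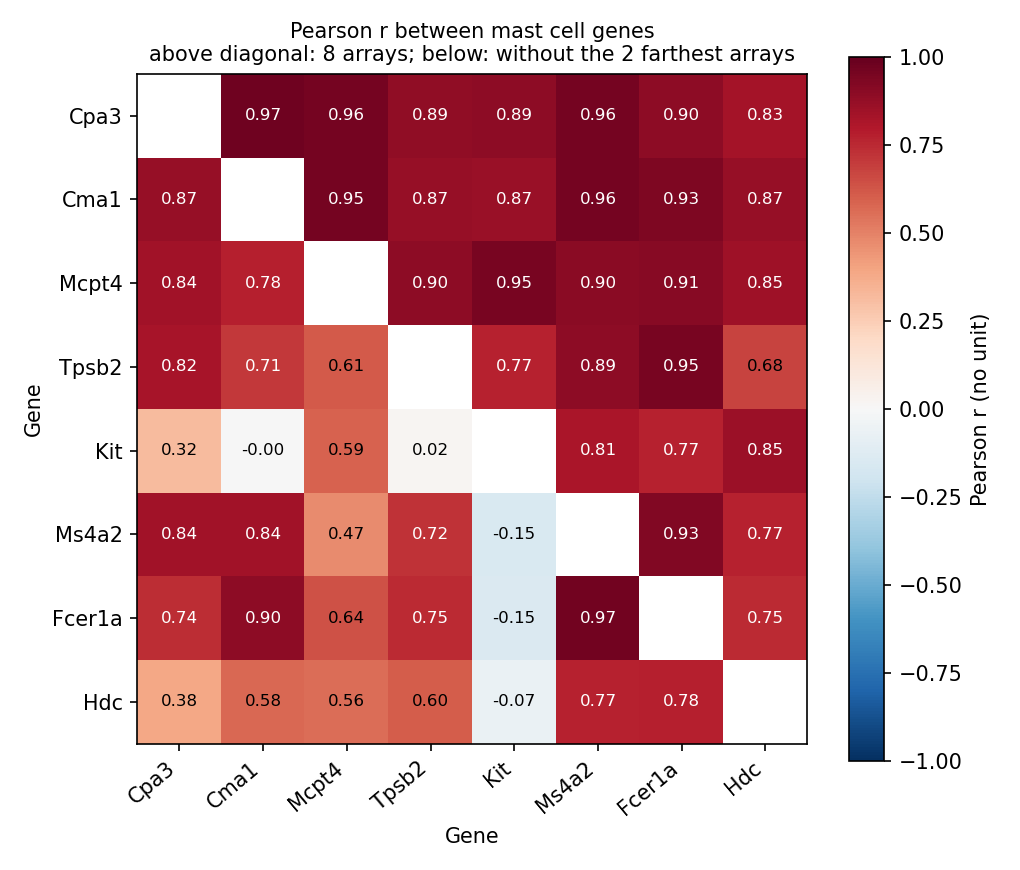
Pearson r between the 8 genes, over 8 arrays above the diagonal and, below it, without the 2 arrays farthest from the median of the pair's first gene; colour gives r from -1 to 1. Above the diagonal r runs from 0.677 to 0.973, and below it the 6 lowest values are those of Kit with every gene but Mcpt4 (-0.151 to 0.319), followed by Cpa3 with Hdc (0.383).

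Among 18190 genes whose values vary, the r of each with Cpa3 had a median of 0.00972, and the highest 1% (181 genes) began at 0.805. All 7 other members lay in that 1%, with Cma1 at rank 2, Ms4a2 at rank 5, Mcpt4 at rank 6, Fcer1a at 48, Kit at 50, Tpsb2 at 53 and Hdc at 132. Rank 1 was Hs6st2, a heparan sulfate sulfotransferase, with r = 0.981. Without replicate 1 of both diets, 4 of the 7 stayed in the highest 1% (Cma1, Mcpt4, Tpsb2 and Ms4a2). Without collagen 1 and control 4 none did, with Cma1 first among them at rank 189.

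By the naming rule, which takes only genes outside the 8 with a mean at or above the median level of 8.193, the 6 whose pattern was most like the members' mean z value over the 8 arrays were Hs6st2 (r = 0.98), Cyp11a1, the enzyme that opens steroid synthesis (0.975), Slc35d1, a nucleotide sugar transporter (0.971), Bmp4, a growth factor of the TGF-beta family (0.965), Cxcl1, a chemokine that attracts neutrophils (0.955), and Cyp4b1, a cytochrome P450 (0.949). Their r after diet means were subtracted lay between 0.948 (Cyp4b1) and 0.986 (Cyp11a1). Cxcl1 had the widest range of them, 0.0380, with 9.0277 in control 1, 9.0538 in control 4 and 9.0657 in collagen 1. Slc35d1 varied over only 1.97e-05. These genes were chosen for their likeness, so r is a description, and 23 of 11590 genes at or above the median level (0.198%) had r over 0.9.

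Other mast cell genes differed in how far they shared this pattern. Of 7 other granule proteases measured, 2 lay in the 1% most like Cpa3, the tryptases Tpsg1 (r = 0.951, rank 11) and Tpsab1 (0.845, rank 104), while Mcpt8, a basophil protease, had r = 0.233 and Ctsg, a neutrophil and mast cell protease, -0.0521. Tpsab1 lay at 8.0818, 8.0913, 8.0990 and 8.1147 in control 1 to 4 and at 8.1146, 8.0986, 8.1032 and 8.1030 in collagen 1 to 4. Its range of 0.0329 was wider than that of any of the 8 members, and its top arrays were theirs.

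Of 10 genes for the KIT ligand and transcription factors, 3 lay in that 1%. Gata2, a transcription factor that mast cells need, ranked 4 with r = 0.965 (rho = 0.952), at 9.28941, 9.28942, 9.28948 and 9.28949 in control 1 to 4 and 9.28956, 9.28940, 9.28942 and 9.28947 in collagen 1 to 4. Tal1 (r = 0.909) and Kitl, the ligand of KIT (0.882), followed, while Mitf had r = 0.5 and Gata1 0.39. Over the 6 arrays without collagen 1 and control 4, r was 0.912 for Gata2, 0.626 for Tal1 and 0.37 for Kitl.

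In the granule storage list 1 of 10 genes lay in the 1%, Slc18a2, which loads amines such as histamine into vesicles (r = 0.938, and 0.851 over those 6 arrays). Tph1, the first enzyme of serotonin synthesis, had r = 0.777, and Srgn, the core protein that carries granule heparin, 0.683. Over those 6 arrays they had 0.235 and 0.534. Over 8 arrays the median of the list was 0.468, and the lowest were Rab27a (-0.259) and Vamp8 (-0.222). Of 9 other receptors 2 lay in the 1%, and the median r of the 9 was 0.486. The lowest were Il9r (-0.603) and Ptger3 (-0.344). Mrgprb1, a G protein-coupled receptor related to the mast cell receptor Mrgprb2, had r = 0.942 and a range of 0.0188, from 9.2993 in control 1 to 9.3181 in collagen 1. Cd200r3, a receptor of basophils and mast cells, had r = 0.838 with a range of only 5.01e-06. Tpsg1, Tpsab1, Gata2, Tal1, Kitl, Slc18a2, Tph1, Srgn, Mrgprb1, Cd200r3, Il9r and Ptger3 were named after their values were seen.

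Over the 8 arrays no gene of the IgE receptor signalling list, 12 measured, lay in the 1%, nor any of 6 histamine receptor and breakdown genes or 6 eicosanoid enzymes. Fcer1g, the gamma chain that the IgE receptor shares with other Fc receptors, had r = -0.0282, and the kinase Syk -0.0624. Both are also expressed in other blood cells. Over the 6 arrays without collagen 1 and control 4 their r with Cpa3 was 0.548 and 0.607. The mean z value of the signalling list was highest in collagen 4 (1.23) and lowest in collagen 2 (-1.21), where the members' mean was highest in collagen 1 and lowest in control 1.

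Over the 8 arrays 1 marker of other skin cells lay in the 1% most like Cpa3. Of 8 basophil and eosinophil genes 1 (Cd200r3) lay in the 1% most like Cpa3, and 0 of 7 melanocyte, 6 macrophage, 4 neutrophil, 5 T cell, 5 Langerhans and dendritic cell, 6 fibroblast, 4 endothelial, 6 keratinocyte, 6 skeletal muscle and 3 adipocyte genes. Over the 6 arrays without collagen 1 and control 4 this separation was not seen. There the adipocyte genes Fabp4 and Lep had r = 0.872 and 0.769 with Cpa3, the dendritic cell gene Flt3 0.78, the fibroblast gene Dcn 0.716 and the macrophage gene Cd68 0.676, against 0.869 for Cma1, 0.383 for Hdc and 0.319 for Kit. Hnmt, from the histamine list, had 0.9 there and 0.0702 over 8 arrays. These names too were picked with the values in view. The melanocyte list, which matters for Kit, had mean z values of -0.37 in control 4 and -0.08 in collagen 1, and its mean level ran from 8.5830 to 8.5845 with the control diet and from 8.5840 to 8.5852 with collagen. Of its 7 genes 6 had a higher mean with collagen and 3 an unadjusted p under 0.05 by limma (adjusted p = 1), where 52.9% and 3.62% of all genes did; their part in the values of Kit was not tested. The muscle list had 1.11 in control 4 and -1.41 in collagen 1, so these 2 arrays were its highest and lowest. The difference between the 3' and 5' Gapdh control probe sets, which is used as a sign of RNA quality, was largest in collagen 1 (0.29058) and smallest in control 4 (0.28978), with control 1 second largest (0.29041). Its part in the shared pattern was not tested.

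**Figure D4:**
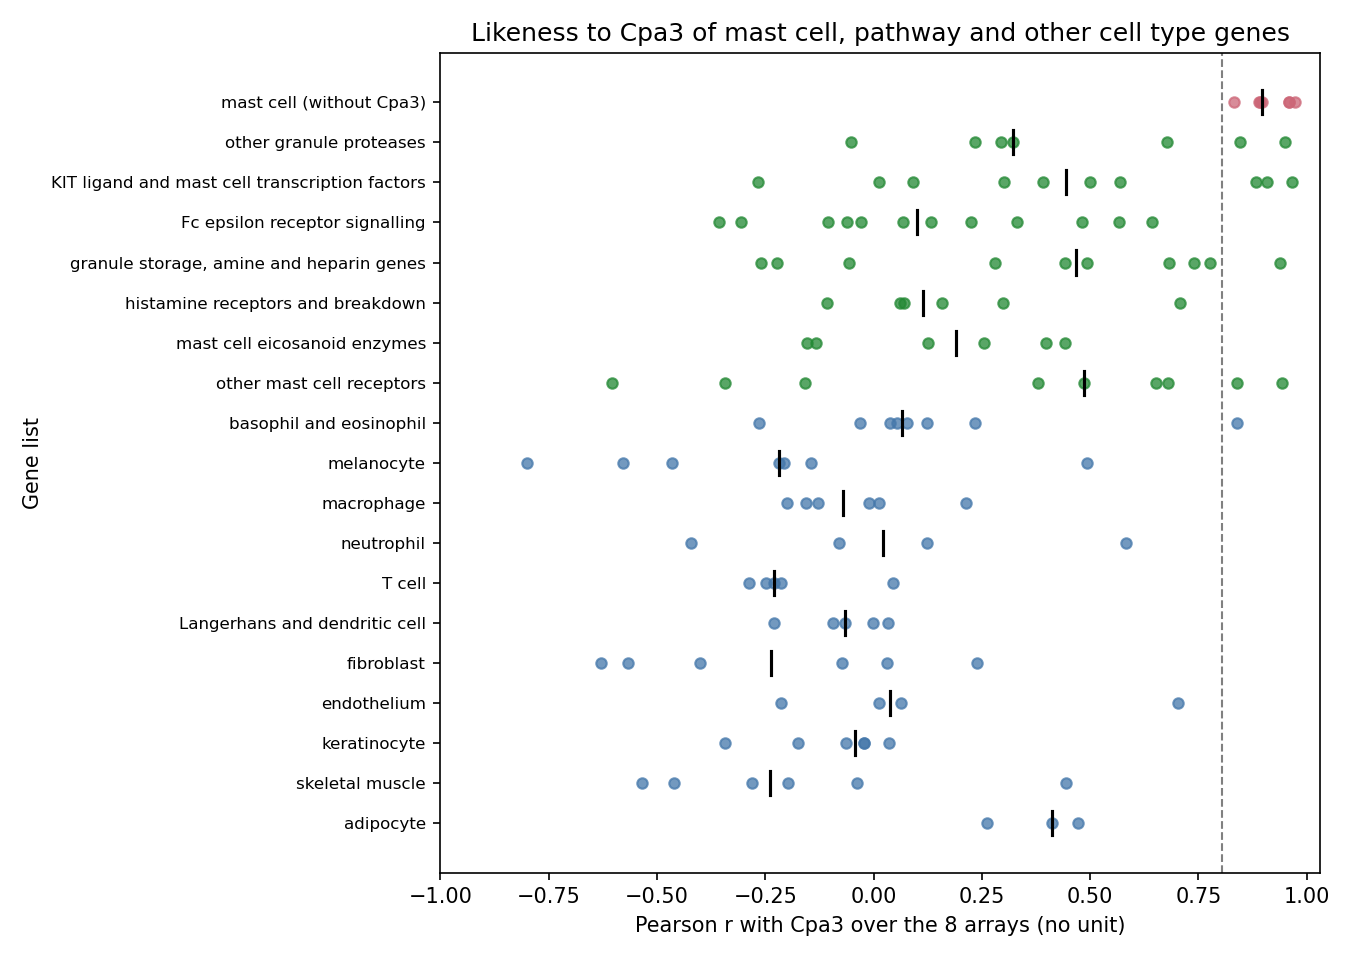
Pearson r with Cpa3 over the 8 arrays (horizontal axis) for each measured gene of the mast cell list (red), 7 mast cell pathway lists (green) and 11 other cell type lists (blue); black bars are list medians and the dashed line is where the highest 1% of all genes begins (0.805). The 7 other mast cell members lie beyond the line, as do 8 genes of the pathway lists and Cd200r3 of the basophil list.

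The diets did not differ in any member beyond the spread between arrays. By limma's moderated test over 45037 probe sets, 0 of the 12 member probe sets passed adjusted p 0.05, as did 0% of all probe sets, and each had an adjusted p of 1. At unadjusted p under 0.05 there were 0 of 12, against 3.55% of all probe sets, and the diets overlapped in all 12, where 2.01% of all probe sets did not overlap. Of the 8 genes 6 had a higher mean with collagen, and their median t was 0.296, against 0.0676 over all genes.

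Among the proteases, Cpa3 had a control mean of 11.9342 ± 9.92e-04 (SD, n = 4) and a collagen mean of 11.9344 ± 0.00120, a difference of 1.82e-04 ± 7.45e-04 (SE) with a 95% interval from -0.00161 to 0.00197. In multiples of the within-group SD this was 0.166 for Cpa3, 0.302 for Cma1, -0.0617 for Mcpt4 and 0.00256 for Tpsb2. Among the receptors it was -0.0272 for Kit, 0.472 for Ms4a2 and 0.236 for Fcer1a. Hdc had the largest, 0.649, with a difference of 0.00289 ± 0.00303 and an interval from -0.00437 to 0.0102 (unadjusted p = 0.373 by limma; exact permutation p = 0.486). These intervals hold differences in both directions. In simulated data the limma test recovered 18.6% of probe sets shifted by 4 within-group SD, so a lack of calls does not show that the diets were equal.

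Without replicate 1 of both diets, which leaves 3 arrays a diet, 8 of the 8 genes had a lower mean with collagen in their main probe sets. Their median t was -1.01 against 0.0734 over all genes. Leaving these arrays out could only lower the differences. In all 8 genes collagen 1 was the highest collagen array, and control 1 was the lowest control array or, in Ms4a2, nearly so. None of the 8 genes passed (0 of 12 probe sets at adjusted p under 0.05 by limma, as 0% of all; 0 at unadjusted p under 0.05, against 5.92%). Since the genes move together, these are not 8 separate observations. Kit differed by -8.95e-04 ± 3.43e-04 (SE), which is -2.0 times its within-group SD (unadjusted p = 0.0527 by limma, adjusted p = 0.85), and Mcpt4 differed by -0.00314 ± 0.00149, or -1.61 times its SD (adjusted p = 0.911 by limma). In these 2 genes the 3 collagen arrays lay below the 3 control arrays, an absence of overlap in that direction found in 4.89% of all probe sets. The other 6 differed by between -1.09 SD (Cpa3) and -0.314 SD (Ms4a2). The direction thus turned with these arrays in Cpa3, Cma1, Tpsb2, Ms4a2, Fcer1a and Hdc. These values are those of the main probe sets. In the dimmer Kit probe set the difference was -0.439 SD (unadjusted p = 0.622 by limma), and the diets overlapped. The second probe set had 0.0415 SD for Tpsb2, 0.164 SD for Ms4a2 and -0.769 SD for Hdc.

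**Figure D5:**
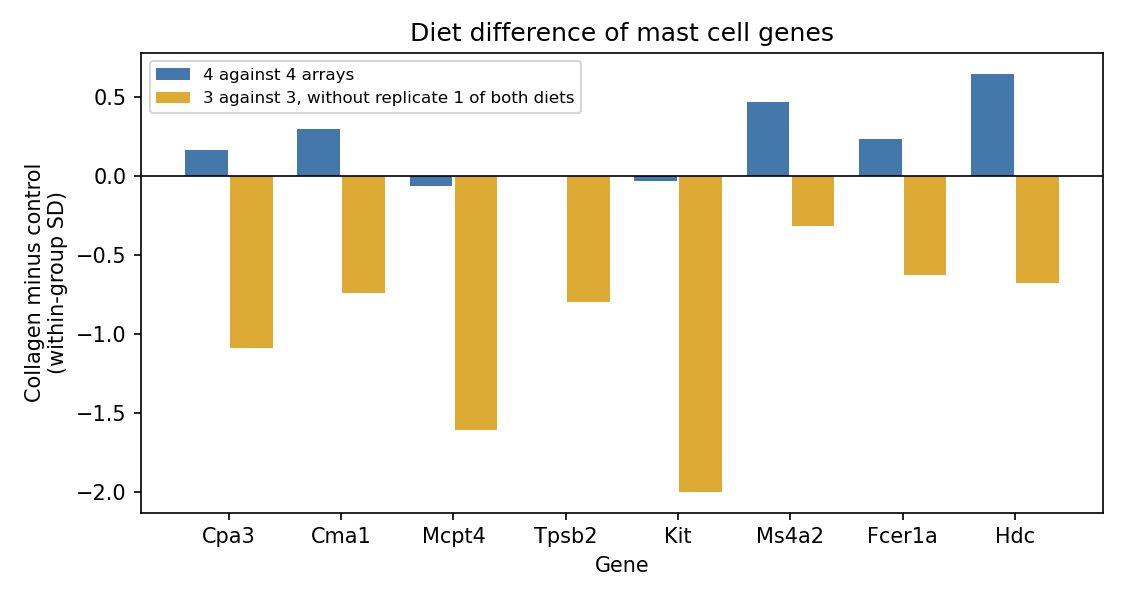
Collagen minus control difference of each gene in multiples of the within-group SD, with 4 arrays a diet (blue) and with 3 a diet after replicate 1 of both was left out (yellow). Blue bars run from -0.0617 to 0.649 and yellow bars from -2.0 to -0.314.

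The genes of the pathway lists did not pass either. Of 60 genes measured in the 7 lists 0 passed adjusted p 0.05 by limma and 1 had an unadjusted p under 0.05, where 3.62% of all genes did. It was Tfe3, a relative of Mitf, with a difference of -1.98e-06 or -2.12 SD. Of all genes 52.9% had a higher mean with collagen. The lists had 5 of 7 other proteases higher with collagen, 5 of 10 KIT ligand and transcription factor genes, 3 of 12 signalling genes, 8 of 10 storage genes, 2 of 6 histamine genes, 3 of 6 eicosanoid enzymes and 7 of 9 receptors. Their median t ran from -0.609 (histamine receptors and breakdown) to 0.781 (other granule proteases). The genes with the smallest p at or above the median level were, beside Tfe3, Stat5b, Plcg1, Fcer1g, Rab27a, Vamp8, Hnmt, which breaks down histamine, Pla2g4a, Hpgds, Cd33 and Mrgprb1, with unadjusted p from 0.0780 (Stat5b) to 0.605 (Mrgprb1).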

How the data were processed

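Biotin-labelled RNA from dorsal skin was measured on 1-colour arrays, per the labels' protocols. The authors deposited log2 values in 1 table with a column per array. That they are log2 rests on their range (6.56 to 14.46). R 2.7.2 appears in the submitters' processing notes. The summary step, the normalization and the genome build stay unnamed (not given in the sources used here).

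Values were used as deposited, without the 64 control probe sets. A 2-group model of diet alone was fitted with limma 3.58.1 (R 4.3.3; lmFit, then eBayes). Its two-sided p-values were adjusted by Benjamini-Hochberg over 45037 probe sets, and each difference is collagen less control. Correlations were tested by exact permutation over all 40320 pairings in Python 3.11.15. GATA and E-box letters were searched in RefSeq promoters of GRCm38.p6. Symbols were checked by Entrez identifier against that assembly's gene table, and all 8 matched. The main fit was run on data simulated at the real means and within-group SDs, with 200 probe sets shifted. It recovered 18.6% of those shifted by 4 SD and 88.5% of those shifted by 8 SD, with a mean of 5.2 false calls.

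The members and lists were chosen with earlier results of these data known. Named genes were the 8 members, up to 2 genes with the smallest p per pathway list at or above the median level, and the 6 other genes at or above the median level most like the members' mean z value. Alternatives were each left-out array, replicate 1 of both diets, the replicate number as a block, 2 normalizations, a filter on dim probe sets, a fit on genes, another variance model, array weights, control probe sets kept, other probe sets and an exact test. Same-numbered arrays of the 2 diets had r over probe sets of 0.361, 0.0581, 0.2 and 0.0343 for replicates 1 to 4. Differently numbered arrays had r from -0.267 to 0.155. The labels do not call same-numbered arrays pairs, so the main fit did not take them as such. Whether they share a step was not tested, and the block on the replicate number is given as an alternative.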

Additional observations from a re-analysis of the deposited data

Results flagged for a closer look

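In Kit, collagen 1 lay far from the other collagen arrays. Its gap to the nearest of them was 0.888 of the range of the 4 arrays, above Dixon's critical value for 4 arrays. Of 26 groups of 4 arrays examined (12 probe sets and the mean z value, in each diet) this was the 1 found. Chance gives about 1 in 20, so about 1 such flag was expected among the 26. The same array was highest in 6 of the 8 genes, without passing that value in the others.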

How the results depend on the processing

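None of the 8 genes passed adjusted p 0.05 by limma under any alternative run. Of 147 differences under alternatives, 47 equalled the main one because the alternative changes the test or the probe sets fitted and not the difference, and of the other 100 the direction turned in 30. Without replicate 1 of both diets the difference was -7.35e-04 for Cpa3, -0.0012 for Cma1, -6.72e-05 for Tpsb2, -4.10e-04 for Ms4a2, -0.00122 for Fcer1a and -0.00104 for Hdc. With array weights it was -2.17e-04 for Cpa3, -1.73e-04 for Cma1, -3.34e-05 for Tpsb2 and -1.69e-04 for Fcer1a. It was -9.91e-05 for Cpa3 after quantile normalization, and for Kit 2.63e-05 after median centring and 9.3e-08 with its dimmer probe set. With 1 array left out the differences ran from -4.01e-04 to 5.45e-04 for Cpa3, from -5.23e-04 to 0.00161 for Cma1, from -0.00215 to 0.00111 for Mcpt4, from -3.36e-05 to 5.20e-05 for Tpsb2, from -7.12e-04 to 2.67e-04 for Kit, from 3.72e-05 to 0.00147 for Ms4a2, from -3.75e-04 to 0.00186 for Fcer1a and from 8.78e-05 to 0.00439 for Hdc. Over all probe sets 0 passed, also without each array in turn and with the replicate number as a block (0 passed; 2801 at unadjusted p under 0.05 against 1601), and 2 passed after quantile normalization. The cause of these moves was not tested. Of 28 pairs, 27 passed in the main setting, between 16 (without collagen 1) and 27 passed with 1 array left out, 1 without replicate 1 of both diets and 0 without the 2 farthest arrays, where fewer arrays also raise the smallest p. The left-out arrays and both normalizations of the correlations were added after the data were seen, and 19 pairs passed after quantile normalization and 28 after median centring. Without detection calls, how far each signal stood above background is unknown.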
